A study of Mus musculus with 18 samples.

Results

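Imprinted genes are expressed mainly from the allele inherited from one parent, and many of them set the pace of fetal growth and are turned down in most tissues after birth. Genes expressed from the paternal allele, such as Igf2, tend to promote growth, and genes expressed from the maternal allele, such as Cdkn1c and Grb10, tend to restrain it. Several sit in clusters under a shared control region, so that Igf2 and H19, or Dlk1 and Meg3, are regulated together in the embryo. The 9 imprinted growth genes described here are H19, Igf2, Igf2r, Grb10, Cdkn1c, Plagl1, Peg3, Dlk1 and Meg3. They were taken by name from a table of 57126 genes, and all 9 were found. Total counts per gene do not separate the parental alleles, so imprinting itself was not measured.

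RNA was sequenced from 18 primary mammary tumors of 16 mice. Tumors arose after adenovirus carrying Cre recombinase (Ad-Cre) was injected into the mammary ducts of 10- to 12-week-old female F1 hybrids of BALB/c and C57BL6/J, and ages at collection are not analysed here. In MaP R172H/- mice (7 tumors) and MaP R245W/- mice (5 tumors), recombination left epithelial cells with a single Trp53 allele coding for the p53 mutant, and in MaP -/- mice (6 tumors from 4 mice, with 2 tumors each from JM663 and JM833) with neither allele. Bulk RNA in every group therefore mixes recombined ductal epithelium, reached by Ad-Cre, with stromal and immune cells whose Trp53 is wild-type. YZ2, YZ6 and YZ10 among the MaP R172H/- tumors, and JM1233, JM1564 and RM0014 among the MaP R245W/- tumors, also carried the reporter allele Rosa26LSL-TdTomato/+. The MaP R172H/- libraries were read on a HiSeq and the other libraries on a NovaSeq. Genotype and instrument therefore cannot be told apart in any comparison with MaP R172H/-. The paper classed every MaP R172H/- tumor as a nonmetaplastic adenocarcinoma of the luminal B or HER2-enriched subtype. All tumors of the other genotypes were classed as triple-negative, without expression of Esr1, Pgr or Erbb2. Genotype and tumor subtype cannot be told apart in those comparisons either. Libraries held 23113578 to 27930163 counts in MaP R172H/-, 30030630 to 37365062 in MaP R245W/- and 24736337 to 32085794 in MaP -/-. Levels are given as CPM, the counts scaled to library sizes that were normalized by the trimmed mean of M-values (TMM).

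Some libraries stood apart before any comparison. The 9 mature skeletal muscle markers summed to 1304 CPM in JM1233, 194 CPM in JM1133 and 42.9 CPM in JM1126, with Acta1 (skeletal actin) the most abundant in each and none of the markers at 0, against 1.88 to 17.0 CPM in the other 15 tumors. The 7 markers of simple and luminal epithelium were all above 0 in every tumor, but their sum was 141 CPM in JM779-T1, 309 CPM in YZ7 and 450.0 CPM in JM1233, and it reached 8595 CPM in YZ11. As a check of the labels, Trp53 was measured at 10.8 to 50.1 CPM in MaP R172H/- (median 45.7 CPM) and at 9.41 to 21.6 CPM in MaP -/- (median 12.2 CPM). Trp53 was higher in MaP R172H/- than in MaP -/- (log2 fold change 1.58, SE 0.311, edgeR adjusted p = 0.00794). YZ11, at 10.8 CPM, lay inside the range of MaP -/-, while the other 6 MaP R172H/- tumors held 41.3 CPM or more. In the MaP R245W/- tumors it stood at 11.4 CPM in JM1233, 27.0 CPM in JM1564, 9.08 CPM in RM0014, 27.6 CPM in JM1126 and 58.9 CPM in JM1133, and did not pass the test against MaP -/-. The Trp53 level therefore did not set the libraries labelled YZ11, JM1233 and RM0014 apart from MaP -/-, and RM0014 was below every MaP -/- tumor. The tumors JM836-T1 and JM779-T1 are named by the labels, while the study's own list of sequenced tumors gives the other tumor of both mice, so results that lead the text were also computed without them.

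H19 and Igf2 lie side by side on chromosome 7. H19 is a long noncoding RNA expressed from the maternal allele (GRCm39 chr7:142129262-142133957, minus strand) and the host of miR-675. Igf2 encodes the fetal growth factor IGF2 from the paternal allele (chr7:142204503-142220694, minus strand) and carries miR-483 in an intron. On the maternal chromosome the insulator protein CTCF binds a control region between the genes and keeps shared enhancers from Igf2. A core CTCF motif, with the letters in capitals below and any base allowed at the sixth and the ninth of them, was searched on both strands in the 5000 bases upstream of the most frequent annotated H19 start (chr7:142131886-142136885). The window held 3 matches, and 31 of 54651 annotated starts (0.0567%) had any match in a window of that length. The matches are shown because this control region ties the level of H19 to that of Igf2. They are written 5′ to 3′ on the minus strand with the motif in capitals, and lay 2167, 2622 and 3892 bases upstream of that start at chr7:142134038-142134067, chr7:142134493-142134522 and chr7:142135763-142135792. A match is a description of letters and not evidence of binding in these tumors.
match 1: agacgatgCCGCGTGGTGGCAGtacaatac
match 2: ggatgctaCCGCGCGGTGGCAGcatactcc
match 3: gggagttgCCGCGTGGTGGCAGcaaaatcg

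The microRNAs of both hosts are shown because a host can be high without its microRNA being counted. Their mature sequences, from RefSeq (GRCm38.p6), are printed with the seed (bases 2 to 8) in capitals, and no seed is shared among the 4. No counts were recorded for the genes Mir675 and Mir483 over the 18 tumors, while H19 had 185567 counts. The libraries were of ribosome-depleted total RNA and not of small RNA, so this does not show that the mature microRNAs were absent.
mmu-miR-675-5p: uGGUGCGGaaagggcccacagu
mmu-miR-675-3p: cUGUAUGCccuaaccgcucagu
mmu-miR-483-5p: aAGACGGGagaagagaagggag
mmu-miR-483-3p: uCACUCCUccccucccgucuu

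H19 varied more between tumors of the same genotype than almost any gene. Its levels ran from 17.7 CPM (YZ2) over a median of 42.3 CPM to 859.8 CPM (YZ3) in MaP R172H/-, and from 64.4 CPM (JM833-T1) over a median of 590.1 CPM to 1702 CPM (JM663-T1) in MaP -/-. The 5 MaP R245W/- tumors held 107 CPM (JM1233), 29.1 CPM (JM1564), 150.5 CPM (RM0014), 36.1 CPM (JM1126) and 17.6 CPM (JM1133). YZ3 and YZ7 (814 CPM) were far above the other MaP R172H/- tumors, every MaP R245W/- tumor but JM1233 and RM0014 fell below the lowest MaP -/- tumor, and the groups overlapped in all comparisons. The within-genotype SD of H19 was 1.94 on the log2(CPM + 1) scale, larger than that of 99.1% of the 15709 genes with a mean of at least 1 CPM.

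The level of H19 in MaP R245W/- was 68.0 ± 57.9 CPM (SD, n = 5) against 721 ± 613 CPM (SD, n = 6) in MaP -/-, a log2 fold change of -3.41 (SE 0.851). This difference had an unadjusted p of 0.00184 and did not pass the test over all genes (edgeR adjusted p = 0.360, and 0.00243 to 0.700 over the alternatives). An exact two-sided permutation test of this single gene over the tumors gave p = 0.0152, and over mice, with the counts of the tumors of one mouse summed, p = 0.0238 (27 tests were made over tumors and 27 over mice, 9 genes in 3 comparisons each, and these are unadjusted). DESeq2 called the difference (log2 fold change -3.39, adjusted p = 0.00243), where it called 1.71% of genes. Without JM836-T1 and JM779-T1 the log2 fold change was -3.53 (edgeR adjusted p = 0.325). Against MaP -/-, MaP R172H/- had a log2 fold change of -1.35 (SE 1.0, adjusted p = 0.428), and the mutants differed by 2.04 (SE 1.07, adjusted p = 0.239). These values moved with single tumors and the scale. Against MaP -/- the log2 fold change was -2.003 without YZ3, -1.90 without YZ7, -0.91 without JM663-T1 and -3.13 with the muscle covariate, and the difference in mean log2(CPM + 1) was -2.32. Between the mutants it was 1.43 without YZ3, 1.48 without YZ7 and 2.55 without RM0014, and the difference in mean log2(CPM + 1) was 0.87. In bulk tumors fewer cells of a type and less RNA per cell cannot be told apart.

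Markers of other cell types are given for the same comparison by the sign of their log2 fold changes, since 0% of all genes were called in it. All 8 adipocyte markers had a log2 fold change below 0 (median -6.41), as had all 8 lymphocyte markers (median -1.80), while all 6 tested muscle markers (median 6.67) and all 7 epithelial markers (median 1.09) were above 0. The adipocyte markers summed to 32.2 to 105 CPM in MaP R245W/- and to 48.6 to 5401 CPM in MaP -/-. The highest sum was that of JM833-T1, with Fabp4, a fatty acid carrier, at 1933 CPM, and this was the MaP -/- tumor with the lowest H19. The lymphocyte markers summed to 4.47 to 23.1 CPM in MaP R245W/- and to 11.2 to 273 CPM in MaP -/-, with JM833-T2 the highest. Without mouse JM833, left out after seeing the data, the medians of the adipocyte and lymphocyte lists were -1.19 and -0.52, those of the muscle and epithelial lists were 6.89 and 1.04, and H19 had a log2 fold change of -3.89 (SE 0.695, edgeR adjusted p = 0.643). With the muscle score as a covariate the log2 fold change of H19 was -3.38 (edgeR adjusted p = 0.252), and the part of the other cell types was not tested.

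Igf2, the growth factor of the pair, was almost silent. It had 165 counts over the 18 tumors, of which YZ3 held 98 counts (3.46 CPM) and JM663-T1 held 29 counts (1.05 CPM). YZ4 had 14 counts, YZ7 10 counts and YZ10 4 counts, and the other 13 tumors had 3 counts or fewer, 7 of them 0. All 5 MaP R245W/- tumors were in this last set, with 1 count in JM1126 and 0 in the others. Igf2 did not pass the filter on low counts of the main edgeR fits in any comparison. With tumors of one mouse summed edgeR tested it between the mutants and called it higher in MaP R172H/- (log2 fold change 6.07, adjusted p = 0.0348). DESeq2 likewise called MaP R172H/- above MaP R245W/- (log2 fold change 6.25, adjusted p = 0.00427), where it called 12.3% of genes, with every MaP R245W/- tumor at or under 1 count, so that the size of both folds depends on the fit. Without YZ3, left out after seeing the data, DESeq2 did not call Igf2 (4.47, adjusted p = 0.0556) and edgeR did not test it. Between the mutants an exact permutation test over their tumors, YZ3 included, gave p = 0.0732, unadjusted (difference in mean log2(CPM + 1) 0.50). Igf2os, a transcript opposite to Igf2 on the plus strand, had 95 counts, 39 of them in YZ3 and 19 in JM663-T1, the tumors that were also highest for Igf2. The genes overlap, and whether the counting used the strand is not stated, so their reads may have been shared. JM663-T1, the tumor with the highest H19, was the MaP -/- tumor with the highest Igf2, and YZ3 was highest for both genes in MaP R172H/-. Other tumors with much H19 had little or no Igf2. JM663-T2, of the same mouse and next highest for H19 (1155 CPM), had 0 Igf2 counts. JM836-T1 (679 CPM of H19) had 3 counts and JM779-T1 (501 CPM of H19) had 0.

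Igf2r (chr17:12901293-12988614, minus strand) encodes the mannose 6-phosphate receptor, which carries IGF2 to the lysosome, and spread less than H19, Peg3 or Grb10. Its levels ran from 239 CPM (YZ7) over a median of 488 CPM to 689 CPM (YZ6) in MaP R172H/-, and from 139.5 CPM (JM833-T2) over a median of 455 CPM to 599 CPM (JM836-T1) in MaP -/-. In MaP R245W/- the levels were 332 CPM (JM1233), 59.6 CPM (JM1564), 709 CPM (RM0014), 587 CPM (JM1126) and 548 CPM (JM1133). JM1564 was the lowest and RM0014 the highest of all 18 tumors, both in one group, and the groups overlapped. The log2 fold change was 0.23 (SE 0.307, edgeR adjusted p = 0.681) for MaP R172H/- and 0.07 (SE 0.513, adjusted p = 0.966) for MaP R245W/- against MaP -/-, with 0.14 (SE 0.437, adjusted p = 0.876) between the mutants. Airn, the paternal noncoding RNA antisense to Igf2r that silences it in the embryo, stood at 14.2 to 65.7 CPM in every tumor and did not track Igf2r (r = -0.114 over 16 mice, permutation p adjusted over 48 neighbour pairs 0.874), with 0.271 in the HiSeq and -0.403 in the NovaSeq mice. As for Igf2os, reads of Airn and Igf2r may have been shared.

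Grb10 (chr11:11880498-11988683, minus strand) encodes an adaptor that binds the insulin and IGF1 receptors and restrains their signal, and it had the lowest adjusted p between the mutants among the 8 members that edgeR tested. Its levels ran from 22.8 CPM (YZ10) over a median of 57.6 CPM to 74.6 CPM (YZ7) in MaP R172H/-, and from 19.6 CPM (JM779-T1) over a median of 43.8 CPM to 166 CPM (JM663-T2) in MaP -/-. Among MaP R245W/- tumors the levels were 112 CPM (JM1233), 190.1 CPM (JM1564), 388 CPM (RM0014), 89.2 CPM (JM1126) and 59.8 CPM (JM1133). RM0014 was the highest of all tumors, and JM1133 was the only MaP R245W/- tumor inside the range of MaP R172H/-. The mean was 51.2 ± 20.6 CPM (SD, n = 7) in MaP R172H/- and 168 ± 132 CPM (SD, n = 5) in MaP R245W/-, a log2 fold change of -1.71 (SE 0.532) that just missed the threshold of 0.05 (edgeR adjusted p = 0.0510, and 0.0204 to 0.192 over the alternatives). An exact two-sided permutation test of this gene gave p = 0.00631, unadjusted over the 27 tests.

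Grb10 did pass in 6 of 20 fits, a number that includes the main fit. It was called lower in MaP R172H/- by DESeq2 (-1.71, adjusted p = 0.0204), by edgeR in the 12 mutant tumors alone (-1.71, adjusted p = 0.0380), with the muscle score as a covariate (-2.04, adjusted p = 0.0381), with tumors of one mouse summed (-1.69, adjusted p = 0.0341), without YZ7 (-1.83, adjusted p = 0.0491) and without JM1133 (-1.93, adjusted p = 0.0385). Without RM0014 the log2 fold change was -1.13 (edgeR adjusted p = 0.192). The muscle markers moved with this contrast too: all 6 that were tested were called lower in MaP R172H/- (median log2 fold change -4.88), and 1 marker each of the fibroblast (Lum), macrophage (Adgre1), muscle precursor (Myh3) and proliferation (Ccnb1) lists was called lower too. All 10 fibroblast markers (median -1.28) and all 6 endothelial markers (median -0.30) were below 0, and all 8 lymphocyte (median 0.64), all 5 basal (median 2.38) and 7 of 8 adipocyte markers (median 3.19) above 0. YZ4, the MaP R172H/- tumor with the highest adipocyte sum (594 CPM), was left out after seeing the data. Grb10 then had a log2 fold change of -1.79 (edgeR adjusted p = 0.0658). Without YZ4, 5 of 8 adipocyte (median 1.44) and 5 of 8 lymphocyte markers (median 0.50) were above 0, and 5 of 6 muscle markers were called lower. All fibroblast and endothelial markers stayed below 0 and all basal markers above 0. Beyond the muscle covariate, the part of these cell types in the difference was not tested. Against MaP -/-, Grb10 had a log2 fold change of 1.25 (SE 0.622, adjusted p = 0.453) in MaP R245W/- and -0.43 (SE 0.476, adjusted p = 0.615) in MaP R172H/-.

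Cdkn1c (chr7:143012069-143014806, minus strand) encodes a cyclin-dependent kinase inhibitor of the Cip/Kip family, and a single tumor carried its highest level by far. In MaP R172H/- it ran from 0.863 CPM (YZ2) over a median of 2.27 CPM to 40.8 CPM (YZ7), and in MaP -/- from 0.979 CPM (JM663-T1) over a median of 3.40 CPM to 6.92 CPM (JM836-T1). The MaP R245W/- tumors held 5.87 CPM (JM1233), 3.77 CPM (JM1564), 6.07 CPM (RM0014), 4.76 CPM (JM1126) and 0.420 CPM (JM1133). Apart from YZ7 no tumor passed 8.46 CPM (YZ4), JM1133 was the lowest of all, and the groups overlapped. The log2 fold change against MaP -/- was 1.18 (SE 0.859, edgeR adjusted p = 0.419) in MaP R172H/- and -0.11 without YZ7. It was 0.07 (SE 0.627, adjusted p = 0.971) for MaP R245W/- against MaP -/-, and 1.09 (SE 0.882, adjusted p = 0.462) between the mutants, or -0.22 without YZ7. Kcnq1ot1, the paternal noncoding RNA that silences the Cdkn1c domain in cis, was abundant in every tumor at 163 to 512 CPM and its level showed no detectable relation to that of Cdkn1c (r = 0.0492 over 16 mice, adjusted permutation p = 0.906), with 0.206 in the HiSeq and -0.0547 in the NovaSeq mice.

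Plagl1 (chr10:12936248-13007438, plus strand) encodes a zinc finger transcription factor expressed from the paternal allele that can halt the cell cycle. It ran from 1.68 CPM (YZ2) over a median of 5.08 CPM to 9.28 CPM (YZ10) in MaP R172H/-, and from 1.51 CPM (JM663-T2) over a median of 7.39 CPM to 19.7 CPM (JM833-T1) in MaP -/-. In MaP R245W/- Plagl1 stood at 6.40 CPM (JM1233), 2.04 CPM (JM1564), 2.81 CPM (RM0014), 9.29 CPM (JM1126) and 1.64 CPM (JM1133). JM833-T1 and JM779-T1 (11.5 CPM) were above every mutant tumor, and the rest overlapped. The log2 fold change against MaP -/- was -0.76 (SE 0.530, edgeR adjusted p = 0.399) in MaP R172H/- and -0.95 (SE 0.644, adjusted p = 0.566) in MaP R245W/-, with 0.17 (SE 0.578, adjusted p = 0.887) between the mutants.

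Peg3 (chr7:6706882-6733468, minus strand) is a paternally expressed zinc finger gene known as a candidate tumor suppressor. It ran from 31.7 CPM (YZ11) over a median of 113.8 CPM to 285.0 CPM (YZ10) in MaP R172H/-, and from 14.9 CPM (JM663-T2) over a median of 189 CPM to 307 CPM (JM836-T1) in MaP -/-. For MaP R245W/- the values were 18.5 CPM (JM1233), 129 CPM (JM1564), 149.9 CPM (RM0014), 94.2 CPM (JM1126) and 242 CPM (JM1133). Every group had a low tumor, with JM663-T2, JM1233, JM779-T1 (28.9 CPM) and YZ11 at no more than 31.7 CPM and the other 14 tumors at 94.2 CPM or more. The log2 fold change against MaP -/- was -0.17 (SE 0.655, edgeR adjusted p = 0.902) in MaP R172H/- and -0.44 (SE 0.780, adjusted p = 0.838) in MaP R245W/-, with 0.24 (SE 0.700, adjusted p = 0.865) between the mutants.

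Dlk1 and Meg3 share a cluster on chromosome 12. Dlk1 (chr12:109418749-109429262, plus strand) encodes a transmembrane protein related to the Notch ligands and is expressed from the paternal allele. It was low throughout, with 4 to 95 counts. It ran from 0.180 CPM (YZ11) over a median of 0.595 CPM to 4.17 CPM (YZ7) in MaP R172H/-, and from 0.135 CPM (JM833-T2) over a median of 0.214 CPM to 0.301 CPM (JM836-T1) in MaP -/-. In MaP R245W/- Dlk1 stood at 0.268 CPM (JM1233), 0.247 CPM (JM1564), 1.72 CPM (RM0014), 0.128 CPM (JM1126) and 1.56 CPM (JM1133). All but one of the MaP R172H/- tumors, YZ11, lay above the highest MaP -/- tumor, and the MaP R245W/- tumors fell on both sides. Dlk1 was too low for edgeR in the comparisons with MaP -/-. An exact permutation test gave a difference of 0.63 in mean log2(CPM + 1) between MaP R172H/- and MaP -/- with p = 0.0181 over tumors and 0.0909 over mice, unadjusted, and DESeq2 called it (log2 fold change 2.40, adjusted p = 0.00509, or 1.58 and 0.0221 without YZ7, left out after seeing the data), where it called 11.4% of genes. The mutants differed by a log2 fold change of 0.54 (SE 0.717, edgeR adjusted p = 0.677), or -0.28 without YZ7.

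Meg3 (chr12:109506877-109538165, plus strand) is the maternally expressed long noncoding RNA of the same cluster. It ran from 6.45 CPM (YZ11) over a median of 18.97 CPM to 31.1 CPM (YZ3) in MaP R172H/-, and from 5.26 CPM (JM779-T1) over a median of 12.6 CPM to 41.8 CPM (JM836-T1) in MaP -/-. The MaP R245W/- tumors held 28.4 CPM (JM1233), 9.48 CPM (JM1564), 23.03 CPM (RM0014), 48.9 CPM (JM1126) and 15.4 CPM (JM1133). JM1126 was the highest and JM779-T1 the lowest, and the groups overlapped. The log2 fold change against MaP -/- was 0.35 (SE 0.443, edgeR adjusted p = 0.670) in MaP R172H/- and 0.61 (SE 0.529, adjusted p = 0.661) in MaP R245W/-, with -0.30 (SE 0.478, adjusted p = 0.742) between the mutants, or 0.10 without JM1126. Its promoter is shown because the noncoding RNAs downstream of it moved with Meg3 across the tumors. The 250 bases upstream of its representative transcript (GRCm39 chr12:109506629-109506878, plus strand) hold the cyclic AMP response element TGACGTCA, in capitals. This palindrome, which reads the same on both strands, was present in 696 of 54651 windows of that length (1.27%), and among the 9 members in Meg3 and Peg3.
Meg3 promoter: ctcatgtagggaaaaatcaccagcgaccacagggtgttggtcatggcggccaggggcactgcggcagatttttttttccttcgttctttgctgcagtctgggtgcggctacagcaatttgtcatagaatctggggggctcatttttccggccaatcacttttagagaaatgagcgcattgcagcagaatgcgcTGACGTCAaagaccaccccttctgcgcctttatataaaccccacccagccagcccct

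**Figure D1:**
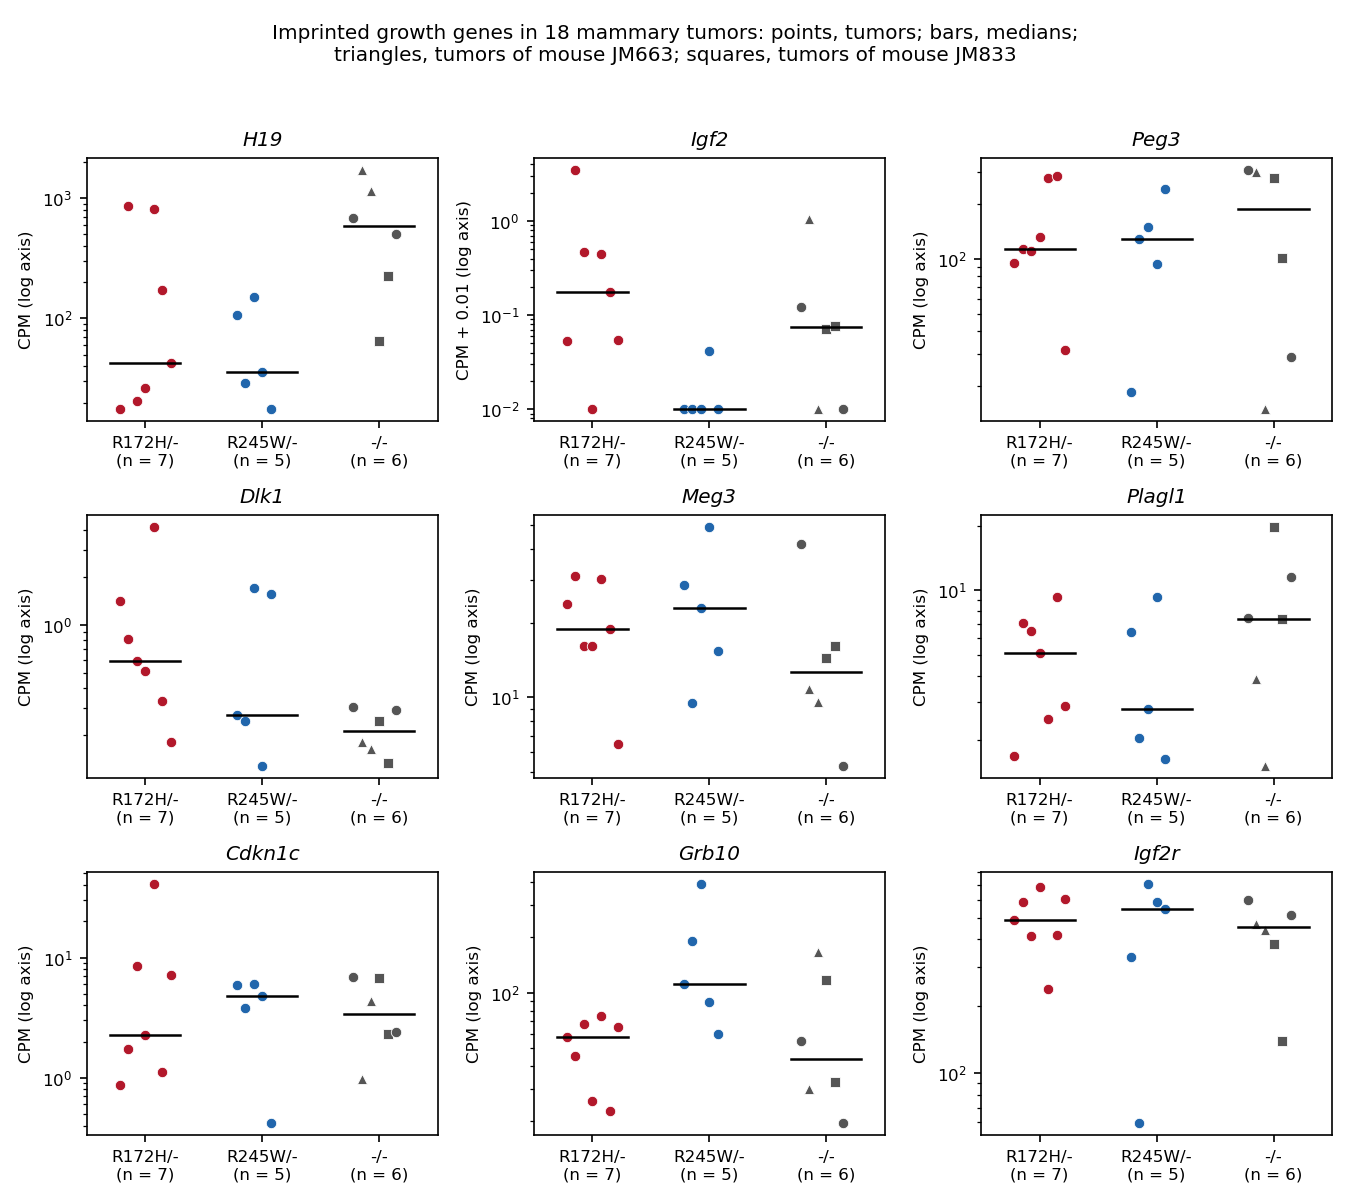
Level of each imprinted growth gene in CPM (log axis, Igf2 as CPM + 0.01) in the 7 MaP R172H/-, 5 MaP R245W/- and 6 MaP -/- tumors. Points are tumors, bars are group medians, triangles mark the tumors of mouse JM663 and squares those of JM833. H19 spans 17.6 to 1702 CPM, YZ7 stands apart for Cdkn1c (40.8 CPM) and YZ3 for Igf2 (3.46 CPM).

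Across the members, 0 of the 7 tested by edgeR were called in MaP R172H/- against MaP -/-, where 8.40% of the 20954 genes tested were called. In MaP R245W/- against MaP -/-, 0 of 7 were called, where the share over 21452 genes was 0% (DESeq2 called 424 genes). Between the mutants, 0 of 8 were called, where the share over 22481 genes was 9.40%. The number of members at an unadjusted p under 0.05 in the same order was 0, 1 (H19) and 1 (Grb10), where 5179, 2527 and 5827 of all genes tested had one. DESeq2 called 1 of 9 (Dlk1), 1 of 8 (H19) and 2 of 9 members with an adjusted p (Igf2 and Grb10), where it called 11.4%, 1.71% and 12.3% of genes. The median log2 fold change of the tested members was -0.17, 0.07 and 0.20, beside 0.003, 0.02 and 0.003 over all genes tested. The groups overlapped for all 9 members in each comparison, while they did not overlap for 4.63%, 1.31% and 5.81% of all genes tested in the same order. The comparisons with MaP -/- share those 6 tumors.

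**Figure D2:**
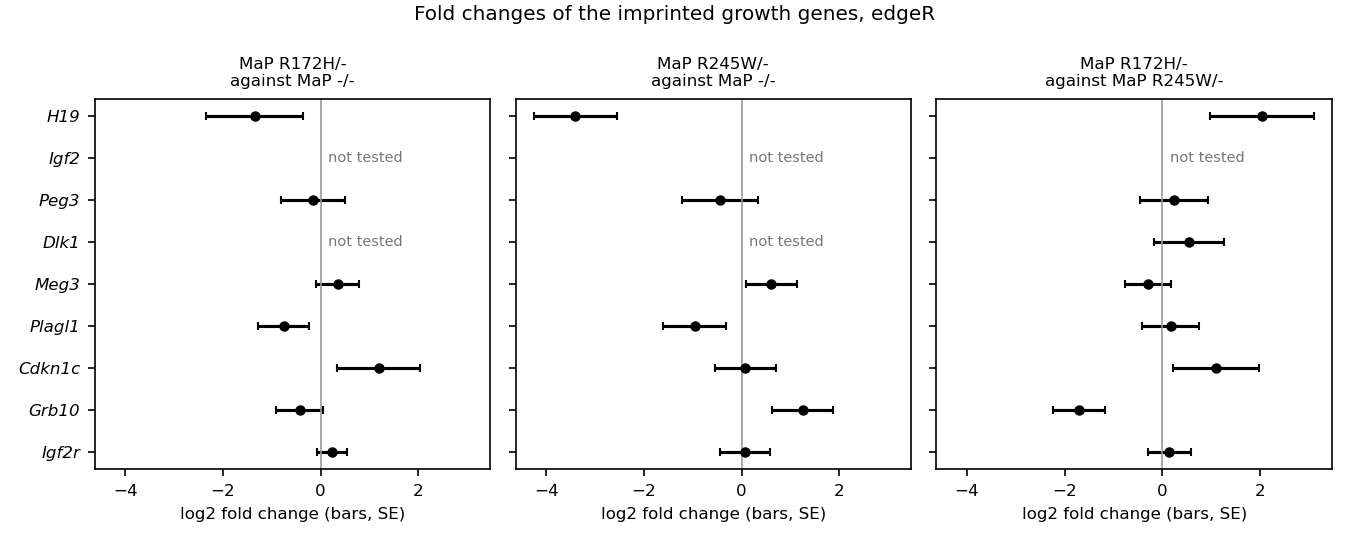
Log2 fold change with its standard error (edgeR) of each imprinted growth gene in the 3 comparisons of genotypes. Genes too low to be fitted are marked as not tested. H19 in MaP R245W/- against MaP -/- (-3.41) and Grb10 in MaP R172H/- against MaP R245W/- (-1.71) lie farthest from 0 relative to their standard errors, and no gene passed an adjusted p of 0.05.

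Levels can be compared between genes once divided by exon length. The median over the 18 tumors was 51.0 CPM per kb for Igf2r, 45.2 CPM per kb for H19, 8.88 CPM per kb for Peg3, 6.09 CPM per kb for Grb10 and 1.89 CPM per kb for Cdkn1c. Below 1 CPM per kb followed Meg3 (0.836), Plagl1 (0.671), Dlk1 (0.0490) and Igf2 (0.00716). Only parts of this order were firm. H19 ranked first in 9 tumors, Igf2r in 8 and Grb10 in 1 (JM1564), and H19 led in 5 of the 6 MaP -/- tumors. Peg3 and Grb10, which ranged over 1.09 to 22.5 and 1.91 to 37.9 CPM per kb, overlapped, as did Cdkn1c, Meg3 and Plagl1. Igf2 ranked last in 16 tumors and Dlk1 in the other 2 (YZ3 and JM663-T1). By group, the median of H19 was 14.9 CPM per kb in MaP R172H/-, 12.7 in MaP R245W/- and 207 in MaP -/-.

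The spread between tumors differed among the members. The highest tumor exceeded the lowest by 97.3-fold for Cdkn1c, 96.8-fold for H19, 32.6-fold for Dlk1 and 20.6-fold for Peg3, and by 19.8-fold for Grb10, 13.0-fold for Plagl1, 11.9-fold for Igf2r and 9.30-fold for Meg3. Without YZ7 the ratio was 20.2-fold for Cdkn1c and 13.5-fold for Dlk1. By the within-genotype SD on the log2(CPM + 1) scale, H19 (1.94) was followed by Peg3 (1.46) and Cdkn1c (1.22). Tumors of the same mouse could be as far apart. In JM663, Peg3 was at 300.2 CPM in one tumor and 14.9 CPM in the other, a 20.1-fold difference, Grb10 differed by 5.54-fold in the opposite direction (30.0 and 166 CPM) and Cdkn1c by 4.47-fold (0.979 and 4.38 CPM). H19 differed there by only 1.47-fold and Igf2r by 1.06-fold. In JM833 the largest difference was that of Grb10 (117 and 32.9 CPM, 3.56-fold), followed by H19 (64.4 and 225 CPM, 3.50-fold), and Igf2r differed by 2.74-fold. Meg3 differed by 1.12-fold in both mice. Each pair is a single comparison with no replicate.

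Correlations among the members were computed over 16 mice on log2(CPM + 1), with the tumors of one mouse summed. Of 36 pairs, 0 passed a permutation p adjusted over the 36 (2 had an unadjusted p under 0.05), and r ranged from -0.527 to 0.478 with 27 of 36 pairs above 0. H19 and Igf2 had the highest r, 0.478 (permutation p = 0.0266, adjusted 0.5684), with a Spearman rho of 0.525 (permutation p = 0.0398, adjusted 0.898). Within the 7 HiSeq mice r was 0.674 (exact permutation p = 0.0373) and within the 9 NovaSeq mice 0.671 (exact permutation p = 0.0132). Without JM663 and YZ3, the mice farthest from the median of H19, r was 0.235, so the Pearson r rested on them. Spearman rho was not computed without them. Most Igf2 values are within a few counts of 0.

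The lowest r was that of Dlk1 and Plagl1, -0.527 (permutation p = 0.0316, adjusted 0.5684; rho -0.424, permutation p = 0.105), and it was -0.500 without YZ7 and RM0014. It was -0.525 in the HiSeq mice (exact permutation p = 0.229) and -0.566 in the NovaSeq mice (exact permutation p = 0.134). Dlk1 and Meg3, of one cluster, had an r of 0.287 (permutation p = 0.284), which was 0.674 in the HiSeq and 0.0189 in the NovaSeq mice. The 9 members therefore held no pair that moved together past the adjusted threshold in this number of mice.

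**Figure D3:**
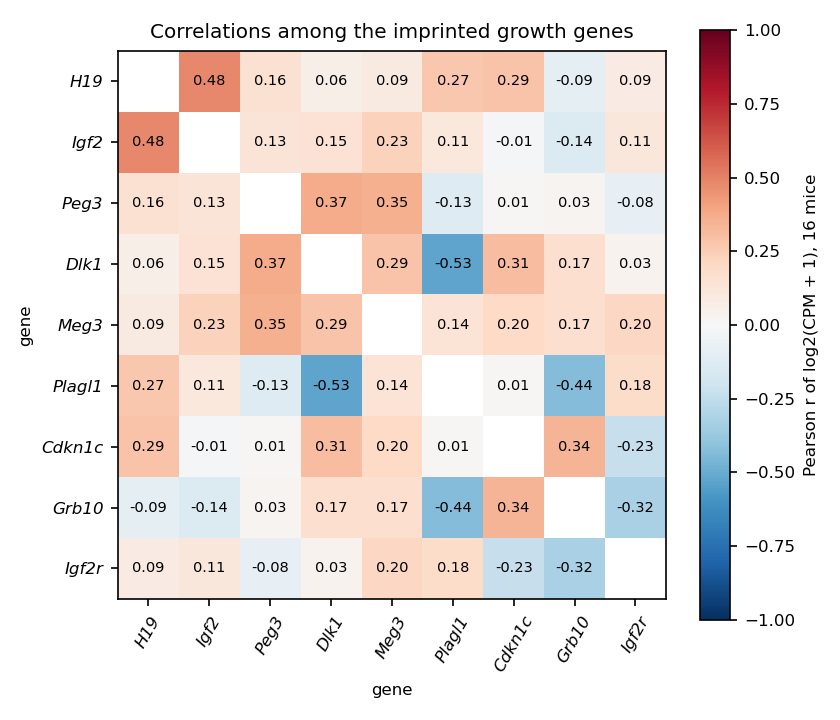
Pearson r between each pair of imprinted growth genes on log2(CPM + 1) over 16 mice, with the tumors of one mouse summed. Values run from -0.527 (Dlk1 and Plagl1) to 0.478 (H19 and Igf2), and none passed an adjusted p of 0.05.

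Genes beside the members were compared in the same way, in 48 pairs of a member with a neighbour or of neighbours with each other. Of these, 8 passed the adjusted permutation p, and 6 did so by rank. Meg3 moved with the noncoding RNAs that follow it on the same strand. With Mirg, a host of microRNAs, r was 0.918 (permutation p = 1e-05, the smallest 100000 permutations can give, adjusted p = 0.00016, rho 0.912), 0.893 without JM779 and JM1126, 0.945 in the HiSeq mice (exact permutation p = 0.00218) and 0.947 in the NovaSeq mice (exact permutation p = 0.000234). With Rian, a host of small nucleolar RNAs, r was 0.859 (adjusted permutation p = 0.00048, rho 0.800), 0.911 in the HiSeq and 0.961 in the NovaSeq mice. Rian and Mirg had an r of 0.974 with each other (adjusted permutation p = 0.00016), 0.992 within the mice of either instrument. Meg3 and Rtl1, a retrotransposon-derived gene of the opposite strand that overlaps Rian in the annotation, had an r of 0.897 (adjusted permutation p = 0.00024), 0.835 in the HiSeq and 0.951 in the NovaSeq mice. Reads of Rtl1 and Rian may have been shared. Meg3 and Dio3, which encodes a thyroid hormone deiodinase, had an r of 0.645 (adjusted permutation p = 0.0359) that did not pass by rank (adjusted p of rho 0.176). It was 0.546 in the HiSeq mice (exact permutation p = 0.211), 0.742 in the NovaSeq mice (exact permutation p = 0.0210) and 0.461 without JM779 and JM1126.

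Rian, which like Meg3 is maternally expressed, stood at 8.07 to 57.0 CPM in MaP R172H/- (median 23.4 CPM) and at 12.2 to 73.6 CPM in MaP -/- (median 19.9 CPM). In MaP R245W/- it stood at 74.6 CPM (JM1233), 24.5 CPM (JM1564), 57.5 CPM (RM0014), 119 CPM (JM1126) and 40.1 CPM (JM1133). JM1126 was highest and YZ11 lowest, as JM1126 was highest for Meg3 and for Mirg (13.0 CPM). Dlk1, upstream in the same cluster, had an r of 0.33 with Rtl1, 0.29 with Rian and 0.37 with Mirg, and 0 of these passed. In the HiSeq mice the same values were 0.894, 0.853 and 0.845 (exact permutation p = 0.00734, 0.00913 and 0.0171, unadjusted), in the NovaSeq mice 0.0434, 0.134 and 0.127, and over all mice -0.00845, 0.0603 and 0.107 without YZ7 and RM0014.

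Peg3 and Usp29 (a ubiquitin-specific protease), paternally expressed genes that start head to head on opposite strands, also moved together. The gene model of Peg3 starts at base 6733468 on the minus strand, and that of Usp29 at base 6733577 on the plus strand. Their r was 0.905 (permutation p = 1e-05, adjusted 0.00016, rho 0.868), 0.817 without JM1233 and JM779, 0.883 in the HiSeq mice (exact permutation p = 0.0141) and 0.935 in the NovaSeq mice (exact permutation p = 0.00016). JM1233, JM663-T2, JM779-T1 and YZ11, the tumors lowest for Peg3, were also lowest for Usp29, with 1, 4, 2 and 7 counts. Zim1, the maternally expressed zinc finger gene beside Peg3, was at 17.0 CPM in JM833-T1 and at no more than 3.299 CPM (JM833-T2) elsewhere. Plagl1 and Phactr2, its neighbour, which encodes a regulator of phosphatase and actin, had an r of 0.720 (adjusted permutation p = 0.0119), 0.630 without JM1133 and YZ2, 0.658 in the HiSeq mice (exact permutation p = 0.112) and 0.777 in the NovaSeq mice (exact permutation p = 0.00892). By rank this pair did not pass (adjusted p of rho 0.0542). Igf2 and Igf2os had an r of 0.955 (adjusted permutation p = 0.00176), which was 0.957 in the HiSeq mice (exact permutation p = 0.0236), 0.895 in the NovaSeq mice (exact permutation p = 0.0142) and 0.585 without YZ3 and JM663.

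**Figure D4:**
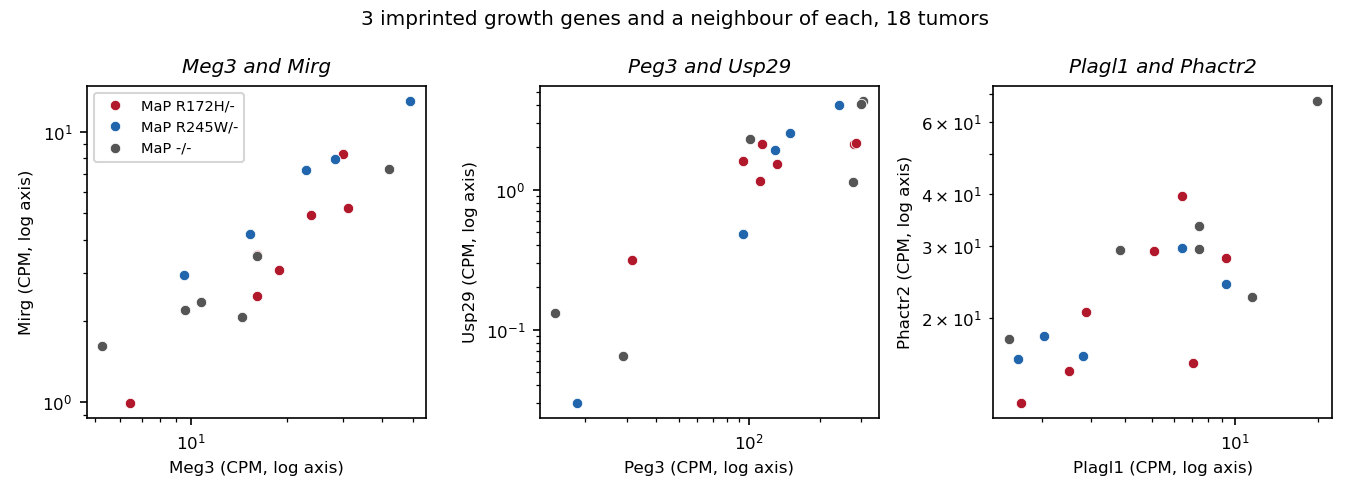
Levels in CPM (log axes) of Meg3 and Mirg, Peg3 and Usp29, and Plagl1 and Phactr2 in the 18 tumors, coloured by genotype. Meg3 and Mirg are highest together in JM1126 (48.9 and 13.0 CPM), and Peg3 and Usp29 are low together in the same 4 tumors.

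Between genotypes, 2 of 26 tested neighbours were called in MaP R172H/- against MaP -/- (7.69%), 0 of 26 in MaP R245W/- against MaP -/-, and 2 of 27 between the mutants (7.41%), against 8.40%, 0% and 9.40% of all genes. Markers of fibroblasts (Pdgfra, Lum and Fap, 3 of 10), macrophages (Adgre1 and Mrc1, 2 of 5) and endothelial cells (Pecam1, 1 of 6) were also called lower in MaP R172H/- against MaP -/-, and without mouse JM833, left out after seeing the data, 1 marker of each of these lists was called. Of lists with no called marker, all 6 pericyte (median 0.81), all 7 epithelial (median 1.28) and all 5 tested muscle markers (median 1.46) were above 0. So were 4 of 5 basal markers (median 2.48). All 8 adipocyte (median -3.02) and all 8 lymphocyte markers (median -1.10) were below 0. Without mouse JM833 the pericyte, epithelial, muscle and basal medians were 1.37, 1.09, 2.004 and 3.09. The adipocyte and lymphocyte medians were then 1.71 and 0.23, so that these 2 lists changed sign. Beyond the muscle covariate, the part of these cell types in the calls of that comparison was not tested. Mrpl23, a mitochondrial ribosomal protein gene next to H19, fell in MaP R172H/- relative to MaP -/- (log2 fold change -1.05, SE 0.230, edgeR adjusted p = 0.0137) and relative to MaP R245W/- (-1.33, SE 0.232, adjusted p = 0.00145). Its 7 MaP R172H/- values of 1.97 to 5.15 CPM were all below the others, which ran from 6.98 to 13.7 CPM. The share of all genes tested that was called lower was 4.73% and 6.49% in these comparisons. Tnnt3, fast skeletal troponin T, lies in the same region and fell relative to MaP R245W/- in MaP R172H/- (-5.57, adjusted p = 0.00244), with 103 CPM in JM1233, the tumor richest in muscle markers. Sf3b5, a splicing factor gene near Plagl1, was higher in MaP R172H/- than in MaP -/- (0.67, adjusted p = 0.0300), where 3.67% of genes were called higher. The other neighbours of Dlk1 and Meg3, Cdkn1c, Peg3, Igf2r and Grb10 that were tested did not pass in any comparison.

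Members were also set beside 10 lists of cell type markers, as the mean log2(CPM + 1) of each list over 16 mice. Of 90 relations 0 passed an adjusted permutation p of 0.05, and 9 had an unadjusted p under 0.05. Plagl1 came nearest, with the lymphocyte list (r = 0.663, permutation p = 0.00072, adjusted 0.0648, rho 0.629), at 0.628 in the HiSeq mice (exact permutation p = 0.143), 0.693 in the NovaSeq mice (exact permutation p = 0.00772) and 0.612 without JM833 and RM0014. It passed when CPM used total counts (r = 0.707, adjusted p = 0.0297), without YZ11 (0.704, adjusted p = 0.0144) and without JM779 (0.726, adjusted p = 0.0297). The lymphocyte markers summed to 273 CPM in JM833-T2, where Ms4a1 of B cells was the most abundant at 95.1 CPM, and to 28.5 CPM in JM833-T1, the tumor with the highest Plagl1. Meg3 and the pericyte and smooth muscle list had an r of 0.626 (permutation p = 0.00871, adjusted 0.302), 0.590 in the HiSeq mice, 0.745 in the NovaSeq mice and 0.522 without YZ7 and JM779. Plagl1 had an r of 0.592 with the fibroblast list (permutation p = 0.012, adjusted 0.302, rho 0.629; 0.735 in the HiSeq mice, 0.595 in the NovaSeq mice) and of 0.550 with the macrophage list (permutation p = 0.0234, adjusted 0.343, rho 0.635; -0.0342 and 0.687). Peg3 and the macrophage list had an r of -0.606 (permutation p = 0.0134, adjusted 0.302, rho -0.244), which was 0.108 in the HiSeq mice, -0.808 in the NovaSeq mice and 0.0415 without JM1233 and JM779. The other 4 relations with an unadjusted p under 0.05 were those of Cdkn1c (0.593) and Dlk1 (0.551) with the pericyte list, Meg3 with the fibroblast list (0.547) and Peg3 with the muscle precursor list (-0.523), and without the 2 farthest mice they were 0.207, 0.0607, 0.295 and 0.253. The part of these cell types in the members' levels was not tested.

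Among other imprinted genes few passed the test. Of the list of genes expressed from the paternal allele (22 listed, 21 found), 19, 20 and 20 were tested in the 3 comparisons and 0 were called in any, with median log2 fold changes of 0.22, -0.12 and -0.16. Of the maternal list of 25 genes, 19, 19 and 20 were tested, with medians of 0.22, 0.39 and -0.20. Asb4, an adaptor of a ubiquitin ligase, fell in MaP R172H/- relative to MaP -/- (log2 fold change -1.0, SE 0.289, edgeR adjusted p = 0.0482) and relative to MaP R245W/- (-2.0, SE 0.360, adjusted p = 0.00179, with no overlap). Its counts were low, at 5 to 16 in MaP R172H/- (0.195 to 0.657 CPM) and 16 to 42 in MaP -/- (0.601 to 1.36 CPM). Gatm, the first enzyme of creatine synthesis, fell in MaP R172H/- relative to MaP R245W/- (-0.88, SE 0.227, adjusted p = 0.0217). These were the only calls in both lists, 1 of 19 and 2 of 20 maternal genes where 8.40% and 9.40% of all genes were called.

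Of the genes of insulin-like growth factor signalling (22 listed), few passed. Igfbp7, a secreted IGF-binding protein relative, was at 249 ± 70.8 CPM (SD, n = 7) in MaP R172H/- and 127 ± 39.8 CPM (SD, n = 6) in MaP -/-, and was the 1 gene called of 19 tested (log2 fold change 0.996, SE 0.249, edgeR adjusted p = 0.0261), where 3.67% of all genes were called higher and 8.40% in either direction. Without mouse JM833, left out after seeing the data, it was not called (0.92, SE 0.303, edgeR adjusted p = 0.0941). Its log2 fold change for MaP R245W/- against MaP -/- was 1.02 (SE 0.375, adjusted p = 0.368). In MaP R245W/- against MaP -/- 0 of 20 were called (median -0.26), where 0% of all genes were, and between the mutants 0 of 20 (median 0.23), where 9.40% were. Igf1 and its receptor Igf1r, named after their values were seen, had median levels of 1.31 and 6.20 CPM per kb, against 0.00716 CPM per kb for Igf2. Among 8 relatives of Cdkn1c, Dlk1 and Igf2r, Notch1, a Notch receptor, was higher in every MaP R172H/- tumor than in any MaP R245W/- tumor (273 ± 37.9 against 142 ± 55.9 CPM, SD, n = 7 and 5; log2 fold change 0.94, SE 0.261, edgeR adjusted p = 0.0312), where 2.91% of genes were called higher. No other relative was called in a comparison in which it was tested, which was 7 of the 8 relatives in the comparisons with MaP -/-.

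For each member the 3 genes most like it across the 18 tumors were found among up to 15709 genes, by Pearson r of log2(CPM + 1), as a description without a test. For Meg3 they were Mirg (0.914), Rtl1 (0.898) and B830012L14Rik (0.897), all of the same cluster on chromosome 12. For Peg3 the first was its neighbour Usp29 (0.868), followed by Emid1 (0.852) and Cdhr4 (0.849) on other chromosomes. For H19 they were Naa15 (0.764), Gm4876 (0.738) and Cenpo (0.713), and none lay on chromosome 7. For Grb10 they were Tmem276 (0.826), Gm16001 (0.760) and Tmem109 (0.756), and for Igf2r Clip4 (0.823), Arid5a (0.778) and Rab7 (0.764).

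Several of the other like genes shared their highest tumor with the member. The 3 genes nearest Dlk1, Cspg5 (0.890, rho 0.678), Mrpl58 (0.887, rho 0.853) and Cnih2 (0.885, rho 0.701), and those nearest Cdkn1c, H2bc21 (0.852, rho 0.750), Stag3 (0.841, rho 0.703) and Stk32a (0.839, rho 0.744), were all highest in YZ7. Those nearest Plagl1, Negr1 (0.791, rho 0.805), 5830432E09Rik (0.789, rho 0.728) and Foxn3 (0.784, rho 0.746), were all highest in JM833-T1. Near Igf2, Sox11 (0.749, rho -0.0138) and Rab11b (0.682, rho 0.603) were highest in YZ3.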

How the data were processed

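Per the authors' methods, total RNA (TRIzol, RNeasy) was made into stranded, Ribo-Zero Gold depleted libraries, aligned to GRCm39 with STAR (2.7.10b) and quantified with RSEM (1.3.3) on GENCODE M34. The authors deposited RSEM expected counts per gene, which were already whole, so rounding kept them as they were. Replicates are separate tumors, 4 of them from 2 mice. edgeR 4.0.16 (R 4.3.3) was used for TMM, filterByExpr and the quasi-likelihood test. Each mutant was fitted with the 6 MaP -/- tumors, the mutants in a fit of 18 tumors, and a gene was called at a Benjamini-Hochberg adjusted p under 0.05 over all genes tested. DESeq2 1.42.0 was an alternative. The SE is the absolute log2 fold change over the square root of F. Correlations used log2(CPM + 1) with 100000 permutations, or exact enumeration under 10 mice. Leaving out the 2 farthest mice used the first gene named, or the marker list. Exon lengths and positions are those of GENCODE M39 (56620 genes matched). All 9 members were named everywhere, other listed genes where called (at most 4 per direction, list and comparison), neighbours, and 3 like genes each, of which 1 is not reported here. Igf1, Igf1r, Igf2os and the pair of Rian and Mirg were named outside that rule, after their values were seen. The members and lists were chosen with earlier results of these data known. The edgeR test and the correlation permutation were checked on simulated data, with independent samples. DESeq2 and the exact permutation tests between genotypes were not.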

Additional observations from a re-analysis of the deposited data

Results flagged for a closer look

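Within the groups of 7, 5 and 6 tumors, 6 of 27 combinations of gene and genotype held a tumor far from the others by Dixon's criterion on the log2(CPM + 1) scale. Chance alone does this in about 1 of 20 for independent tumors and continuous values. That rate does not hold for Igf2, where 1 count against 0 in the others is flagged by construction. Nor does it hold for MaP -/-, where some tumors share a mouse. Of the 6 combinations, 3 concerned Igf2, at few counts: YZ3 in MaP R172H/- (3.46 CPM, 98 counts, the next tumor at 0.463 CPM), JM663-T1 in MaP -/- (1.05 CPM, 29 counts, the next at 0.113 CPM) and JM1126 in MaP R245W/- (0.0319 CPM from 1 count, the others at 0). The other 3 were low tumors. Meg3 in YZ11 was at 6.45 CPM in MaP R172H/-, with the next tumor at 16.1 CPM. Cdkn1c in JM1133 was at 0.420 CPM (11 counts) in MaP R245W/-, with the next at 3.77 CPM. Igf2r in JM833-T2 was at 139.5 CPM in MaP -/-, with the next at 383 CPM. On the CPM scale, tried after seeing the data, 6 were also found, the same 3 for Igf2 and the highest tumors for Cdkn1c (YZ7, 40.8 CPM, the next at 8.46 CPM) and Dlk1 (YZ7, 4.17 CPM, the next at 1.42 CPM) in MaP R172H/- and for Meg3 in MaP -/- (JM836-T1, 41.8 CPM, the next at 16.2 CPM).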

How the results depend on the processing

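Genes called in MaP R172H/- against MaP -/- went from 1760 to 1051 and 287 with an absolute log2 fold change above 1 and 2, 384 with the muscle covariate, 1126 with mice summed, 3432 by DESeq2, 1074 without JM836-T1 and JM779-T1 (chosen after seeing the data), and 1067 (without JM663-T2) to 1866 when each tumor was left out. Against MaP -/-, MaP R245W/- went from 0 to 2 in a fit of 18 tumors, 424 by DESeq2, 5 without those 2 tumors, and 0 to 3 when each was left out, with 2 without JM1564 and 3 without JM779-T1. Between the mutants 2114 became 1392 and 526 above those folds, 1401 with at least 10 counts in every tumor, 3699 by DESeq2, and 1525 to 2362. Members called went from 0 to 1, 1 and 2 by DESeq2 and, between the mutants, to 1 in the 12 mutant tumors, 1 with the muscle covariate, 2 with mice summed (Grb10 and Igf2), and 0 to 1 when each tumor was left out. Member and marker relations went from 0 to 1 with total counts, and to 0 to 1 without each mouse (without YZ11 or JM779). The cause was not tested.

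Signs changed for log2 fold changes that were not called. With the muscle covariate Peg3 was 0.078 in MaP R245W/- against MaP -/- and -0.22 between the mutants. Igf2r in MaP R245W/- was -0.027 with mice summed, -0.19 as a difference of mean log2(CPM + 1) and -0.37 as such over mice (added after seeing the data), where Cdkn1c was -0.11. Peg3 in MaP R172H/- was 0.24 as such a difference. When each tumor was left out, MaP R172H/- against MaP -/- gave -0.41 to 0.082 for Peg3, -0.11 to 1.41 for Cdkn1c and -0.62 to 0.037 for Grb10. MaP R245W/- gave -0.13 to 0.37 for Cdkn1c and -0.16 to 0.36 for Igf2r. The mutants gave -0.039 to 0.61 for Peg3, -0.28 to 1.04 for Dlk1, -0.50 to 0.10 for Meg3, -0.053 to 0.64 for Plagl1, -0.22 to 1.29 for Cdkn1c and -0.14 to 0.38 for Igf2r. No paired analysis was possible because the replicate numbers only name tumors. Igf2 had 3 counts or fewer in 13 of 18 tumors.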

Other observations

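Outside the comparisons, YZ7 held the highest Cdkn1c and Dlk1 of all tumors and also 1458 CPM of Insr, the insulin receptor gene (33257 counts), against 114 to 367 CPM in the other 17 tumors. Insr was singled out after its values were seen. YZ7 also had the highest sum of pericyte and smooth muscle markers, 2396 CPM, and JM779-T1 the lowest, 177 CPM.

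Igf1, the postnatal growth factor, was at 116 CPM in JM833-T1 and 49.9 CPM in JM833-T2, at 71.5 CPM in JM1233 and 46.9 CPM in JM1126, and at 5.65 to 22.4 CPM in the other 14 tumors. It was also looked at after its values were seen.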
